A study of Mus musculus with 3 samples.

Results

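The genes of 9 Sox transcription factors, *Sox2*, *Sox4*, *Sox5*, *Sox7*, *Sox9*, *Sox10*, *Sox11*, *Sox17* and *Sox18*, were followed through the cell lineages of developing mouse back skin. They were taken by symbol as 9 of the 19165 gene rows of the deposited table, and all 9 were found in it. Untreated dorsal skin of male C57BL/6 mice was read cell by cell, with droplet capture and sequencing of transcript 3′ ends, at 2 embryonic stages (E13.5 and E16.5) and on the day of birth (P0). Each stage was 1 library made from the pooled skin of several animals, so stage and library cannot be told apart and no difference below has a replicate check. Embryonic skin was digested with trypsin and P0 skin with collagenase IV. The table held 5962, 5208 and 5065 cells at the 3 stages, with a median of 7066.5, 11021 and 6797 unique molecular identifiers (UMIs, 1 for each captured transcript) per cell. The libraries shared between 32 and 44 cell barcodes pairwise.

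Sox proteins bind DNA through a high mobility group (HMG) box related to that of the testis-determining factor Sry, and they act in groups of close relatives. SoxB1 proteins such as Sox2 keep progenitor cells in an uncommitted state, SoxC proteins (Sox4 and Sox11) act in progenitors that start to differentiate, and SoxD proteins such as Sox5 have no activation domain of their own and work beside SoxE proteins (Sox9 and Sox10). SoxF proteins (Sox7, Sox17 and Sox18) act in the formation of blood and lymph vessels. In skin, Sox9 is known for hair follicle stem cells, Sox10 for melanocytes and Schwann cells, and Sox2 and Sox18 for the dermal papilla, the group of fibroblasts that instructs the follicle.

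Cells were sorted into lineages by clustering each library without any Sox gene and naming the clusters from marker genes that include none. The ending "-like" (dermal-like, endothelial-like) marks such names. Clusters whose markers were mixed stayed unnamed, 18.2%, 19.3% and 7.34% of the cells in stage order. They are in no named class, but they are among the remaining cells where a class is set against all remaining cells. The dermal condensate (DC) is the precursor of the dermal papilla (DP). A DC-like class of 270 cells was named at E16.5 and a DP-like class of 114 cells at P0, and none at E13.5. Their sizes depended on the clustering. At a resolution of 0.5 or 2 in place of 1, the DP-like class held 43 or 196 cells. The DC-like class then held 354 or 266 cells. DP-like levels below are those of the class of 114 cells. The E13.5 library, although labelled skin, also held 213 neural-like, 71 neural progenitor-like, 267 myocyte-like, 143 cartilage-like and 296 tendon-like cells. In all, 45 groups of a lineage and a stage had at least 20 cells. A level below is a gene's summed UMIs in a group of cells, scaled to 1000000 UMIs in all (CPM), with a 95% Poisson interval in brackets that covers counting error only. As 3′ counting records each transcript once whatever its length, levels were not scaled by gene length. Capture can still differ between genes, which the intervals do not cover, so an order of different genes is one of captured UMIs.

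The 9 genes fell into narrow and broad patterns. *Sox7*, *Sox17* and *Sox10* were at 10 CPM or more in 5, 5 and 6 of the 45 groups, *Sox2* in 7, *Sox18* in 8 and *Sox5* in 14. *Sox9* reached that level in 28 groups, *Sox11* in 33 and *Sox4* in all 45. *Sox4* also had the most UMIs in the table, 61182, followed by *Sox11* with 20813 and *Sox9* with 7519, whereas *Sox7* had 899.

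**Figure D1:**
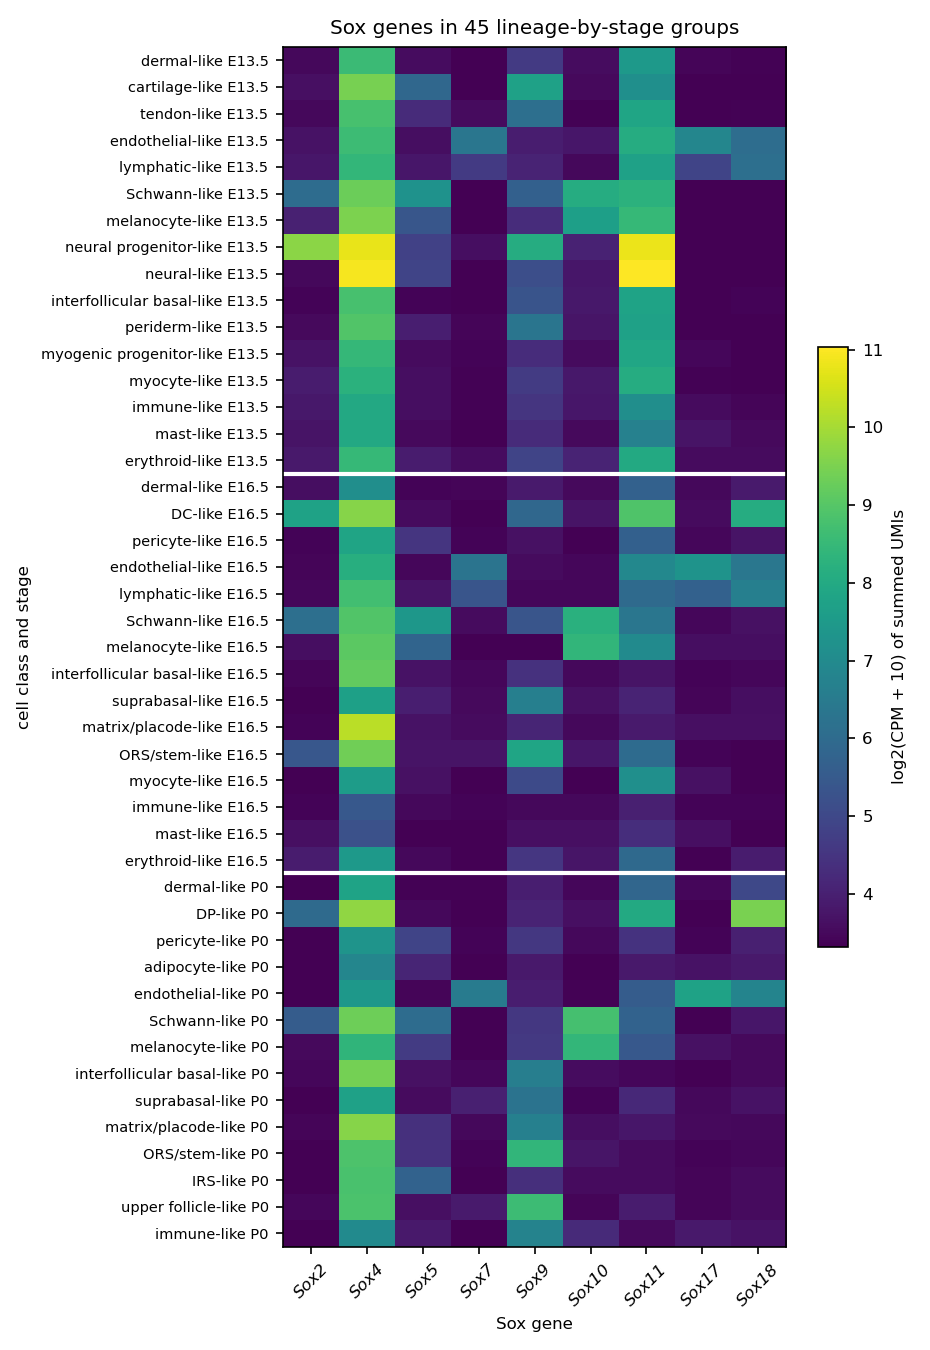
Levels of the 9 Sox genes (columns) in the 45 groups of a lineage and a stage (rows), as colour on the log2 scale of CPM plus 10. *Sox4* is coloured in nearly every row, while *Sox7*, *Sox17* and *Sox10* are each coloured in a few rows only.

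The SoxC genes *Sox4* and *Sox11* are each encoded by a single exon. *Sox4* lies on chromosome 13 from 28948919 to 28953713 and *Sox11* on chromosome 12 from 27334264 to 27342574, both on the minus strand of GRCm38 (GENCODE annotation). The gene *Gm26735* overlaps *Sox4* on the opposite strand. The stretches just upstream of their RefSeq start sites are shown because both genes were high in the same DC-like and neural cells. They run 5′ to 3′ from base 250 to base 21 before the start, on the minus strand of GRCm38.p6, and capitals mark matches to a CCAAT box (CCAAT) or a GC box (GGGCGG) on either strand.
Sox4 promoter, chr13:28953720-28953949: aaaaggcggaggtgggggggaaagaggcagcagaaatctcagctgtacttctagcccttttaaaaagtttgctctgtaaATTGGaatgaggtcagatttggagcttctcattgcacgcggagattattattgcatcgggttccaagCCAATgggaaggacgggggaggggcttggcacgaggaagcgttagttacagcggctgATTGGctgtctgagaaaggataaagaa
Sox11 promoter, chr12:27342739-27342968: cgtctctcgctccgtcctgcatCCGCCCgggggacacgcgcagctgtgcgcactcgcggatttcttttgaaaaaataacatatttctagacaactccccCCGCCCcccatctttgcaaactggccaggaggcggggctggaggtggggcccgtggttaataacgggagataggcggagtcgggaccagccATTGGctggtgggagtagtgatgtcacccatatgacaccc
The *Sox4* stretch held 3 CCAAT matches, of which the last ended 43 bases before the start, and no GC box. In the *Sox11* stretch there were 1 CCAAT match, ending 56 bases before the start, and 2 GC boxes. Neither stretch held a match to TATAAA or to the Sox core motifs ACAAAG and ACAATG, and matches of different motifs did not overlap. Of 32851 RefSeq promoters cut to the same stretch, 32.2% held CCAAT, 29.8% GGGCGG, 11.8% TATAAA, 15.4% ACAAAG and 10.1% ACAATG. The share of G and C was 49.1% for *Sox4* and 59.6% for *Sox11*, against a median of 51.7% over all promoters. RefSeq and GENCODE place the start sites of these genes at different bases, so the stretches belong to the RefSeq starts. Promoters of *Sox2* and *Sox5* were also matched, giving 4 of the 9 genes.

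The highest *Sox4* levels were those of neural-like cells, 1945 CPM (1876 to 2015), and neural progenitor-like cells, 1763 CPM (1641 to 1891), both at E13.5, whose intervals overlapped. It followed in placode-like cells at E16.5, at 1202 CPM (1150 to 1256), and was lowest in mast-like cells of that stage, at 28.0 CPM. The placode is the epithelial bud from which a follicle grows, and its cluster was led by *Dkk4*, *Bmp2*, *Shh* and *Fgf20*. In that cluster all 126 cells had a *Sox4* UMI (100%). With each cell thinned to 3500 UMIs to put depths on one footing, the share was 88.1% (81.1% to 93.2%). *Sox4* in the matrix-like cells at P0, the dividing cells at the base of the follicle, was at 786 CPM (752 to 820). Interfollicular basal-like cells were at 430, 569 and 670 CPM at E13.5, E16.5 and P0, and suprabasal-like cells, the differentiated layer above them, at 200 CPM (177 to 224) at E16.5 and 203 CPM (182 to 225) at P0. So interfollicular basal-like cells were above suprabasal-like cells at E16.5 and P0, with intervals that did not overlap. The suprabasal-like class at E16.5 also had the periderm markers *Krt6a* and *Krt4* among its leading genes, so it was not a pure suprabasal layer.

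*Sox11* had a narrower range of high levels. It was at 2086 CPM (2014 to 2159) in neural-like cells and 1774 CPM (1652 to 1902) in neural progenitor-like cells at E13.5, and then at 473 CPM (446 to 501) in the E16.5 DC-like class, and neighbours in this order did not overlap. In the pooled epithelial-like classes *Sox11* was at 208, 10.8 and 3.03 CPM at the 3 stages, while *Sox4* was at 450, 618 and 523 CPM in the same cells. The SoxC genes therefore stood at very different levels in late keratinocytes.

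At E13.5 the classes read as a reference for free RNA had both genes, at levels that varied between clusters. Immune-like cells had *Sox4* at 242 CPM in 53.4% of thinned cells (70.7% unthinned) and *Sox11* at 131 CPM in 33.2% (48.6% unthinned). Whether they express these genes themselves was not tested. Their 5 clusters ranged from 18.3 to 395 CPM for *Sox4* and from 21.0 to 227 CPM for *Sox11*, so the class gave no single background level. A cluster of 61 cells led by *C1qc* and *C1qb* had *Sox4* at 77.0 CPM (59.6 to 98.0) and *Sox11* at 21.0 CPM (12.4 to 33.2), below the dermal-like levels with no overlap. Erythroid-like cells of that library had *Sox4* at 348 CPM and *Sox11* at 249 CPM, beside dermal-like levels of 374 CPM (365 to 383) and 170 CPM (164 to 175). The erythroid-like cells also had *Col1a1*, a collagen gene of fibroblasts, at 1801 CPM beside 1871 CPM in dermal-like cells. The share of free RNA in these levels was not tested. *Sox4* and *Sox11* in neural-like cells and *Sox4* in melanocyte-like cells, at 722 CPM (631 to 823), stood above the erythroid-like level with no overlap. At E16.5 the immune-like levels were 33.4 and 6.08 CPM, and at P0 they were 118 and 1.49 CPM.

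Against all remaining cells of the E13.5 library, neural-like cells were set beside the whole table by a fixed call: a difference of 2-fold or more, after 10 is added to each CPM, whose interval leaves out 0, among genes with at least 50 UMIs in the compared cells. Of the 9 Sox genes all had enough UMIs, and 2 were called, *Sox4* and *Sox11*, both higher, where 12.5% of 13665 genes were called in either direction. *Sox4* was at 1945 against 405 CPM, a log2 difference of 2.24 (2.18 to 2.29). *Sox11* was at 2086 against 228 CPM, a log2 difference of 3.14 (3.08 to 3.19). The remaining cells held unnamed clusters with neuronal leading genes, among them 121 cells led by *Sst* and *Rtn1*, with *Sox4* at 715 CPM and *Sox11* at 611 CPM. Without unnamed cells the differences were 2.27 (2.21 to 2.32) and 3.23 (3.18 to 3.29). The 5 neural-like clusters ranged from 1089 to 2795 CPM for *Sox4* and from 981 to 4077 CPM for *Sox11*. Of the neuronal genes listed as SoxC targets, *Dcx*, a microtubule protein of migrating neurons, was higher by 4.38 (4.26 to 4.50), and *Tead2*, a transcription factor of the Hippo pathway, was lower by a log2 difference of -1.18 (-1.41 to -0.96). The other 3 listed targets, *Tubb3*, *Stmn2* and *Map2*, had named the cells.

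The neural progenitor-like cells split into a cluster of 41 cells led by *Fabp7* and *Hes5* and one of 30 cells led by *Dll3* and *Msx3*, which differed in every SoxB1 and SoxC gene followed. In the first *Sox2* was at 1084 CPM (970 to 1208), *Sox4* at 677 CPM and *Sox11* at 634 CPM. In the second *Sox2* was at 259 CPM (181 to 358), *Sox4* at 4136 CPM and *Sox11* at 4265 CPM, the highest *Sox11* level of any cluster. *Sox9* was at 338 CPM (276 to 410) in the first and 101 CPM (55.0 to 169) in the second. The cells with the most *Sox2* and *Sox9* were thus those with less *Sox4* and *Sox11*. Neural progenitor-like cells held 64.1% of the *Sox2* UMIs of the E13.5 library.

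Dermal-like cells had *Sox4* at 374, 130 and 214 CPM and *Sox11* at 170, 42.8 and 47.8 CPM, in the order of the 3 stages. Their levels varied between dermal-like clusters of 1 library. Across 12 clusters at P0 *Sox11* ranged from 4.27 to 138 CPM and *Sox4* from 120 to 418 CPM. The cluster with the most *Sox11*, 329 cells with 355 UMIs, was led by the cell division genes *Mxd3*, *Spc25*, *Prc1*, *Birc5* and *Ccna2*, and that with the least, 209 cells with 5 UMIs, by *Lum* and *Dpp4*. At E16.5 the range for *Sox11* was 11.0 to 111 CPM over 12 clusters, with the highest in 170 cells led by histone genes. These clusters were picked after their values were seen. Cells with a *Sox4* UMI also had a *Sox11* UMI more often than cells without one at each stage, when thinned. The shares were 44.2% (41.4% to 47.0%) against 36.2% (32.5% to 40.0%) at E13.5, 13.8% against 8.98% at E16.5 and 13.7% against 8.84% at P0. They pool dermal-like clusters that differed in both genes, and shares within a cluster were not computed.

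DC-like cells were set against the dermal-like cells of the E16.5 library. Of the 9 genes, 5 could be compared (*Sox2*, *Sox4*, *Sox9*, *Sox11* and *Sox18*) and all 5 were called higher, where 6.72% of 11529 genes were called. The other 4, *Sox5*, *Sox7*, *Sox10* and *Sox17*, had 17 to 44 UMIs in all. The median log2 difference of the 5 was 3.19, against 0.06 over all genes compared.

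*Sox18* (chromosome 2, from 181669836 to 181671640, minus strand, 2 exons) had 636 UMIs in DC-like and 114 UMIs in dermal-like cells, at 263 CPM (243 to 284) and 4.70 CPM (3.88 to 5.65), a log2 difference of 4.21 (4.07 to 4.35). *Sox2* (chromosome 3, from 34650405 to 34652461, plus strand, 1 exon, inside the longer transcript *Sox2ot*) was at 205 CPM (188 to 224) against 2.23 CPM (1.67 to 2.91), a difference of 4.14 (3.99 to 4.28). The SoxC genes followed, *Sox11* with 3.19 (3.08 to 3.30) and *Sox4* with 2.51 (2.43 to 2.59). *Sox9* was at 50.01 CPM (41.5 to 59.8) against 4.87 CPM, a difference of 2.01 (1.77 to 2.25). DC-like cells held 63.2% of the *Sox2* UMIs and 44.1% of the *Sox18* UMIs of the library. When thinned, 41.9% (35.9% to 48.0%) of them had a *Sox2* UMI and 44.4% (38.4% to 50.6%) a *Sox18* UMI, or 61.9% and 60.7% unthinned, beside 0% and 0.676% of immune-like cells thinned.

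At P0 the DP-like cells were high in *Sox18* and the SoxC genes, and 4 of the 9 Sox genes had enough UMIs. Of these 3 were called higher than dermal-like cells (*Sox4*, *Sox11* and *Sox18*), where 12.5% of 10473 genes were called. *Sox18* was at 699 CPM (644 to 757) against 22.1 CPM (19.9 to 24.6), a log2 difference of 4.46 (4.31 to 4.62), the highest *Sox18* level of the 45 groups. *Sox4* was at 854 against 214 CPM, a difference of 1.95 (1.83 to 2.06), and *Sox11* at 245 against 47.8 CPM, a difference of 2.14 (1.93 to 2.35). *Sox9* was at 6.98 and 5.56 CPM, which gave 0.13 (-0.32 to 0.70), a difference too small to detect with these counts. *Sox2* had 46 UMIs in DP-like and 1 UMI in dermal-like cells, 47 in all, which is under the minimum. Its levels were 53.5 CPM (39.2 to 71.4) and 0.0640 CPM. The 4 genes *Sox5*, *Sox7*, *Sox10* and *Sox17* had 5 to 17 UMIs in these cells.

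**Figure D2:**
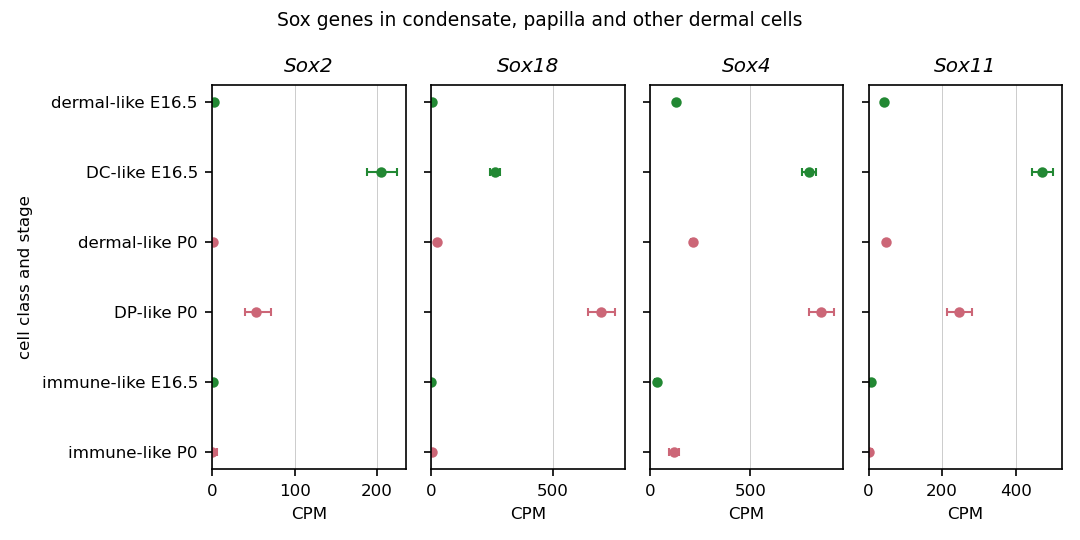
Level in CPM (horizontal axes) of *Sox2*, *Sox18*, *Sox4* and *Sox11* in DC-like, DP-like, dermal-like and immune-like cells at E16.5 and P0 (vertical axis), with points for the level of summed UMIs and bars for 95% Poisson intervals. DC-like and DP-like cells lie to the right of dermal-like cells for all 4 genes, *Sox2* reaching 205 CPM at E16.5 and *Sox18* 699 CPM at P0.

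*Sox2* and *Sox18* were lower together in 1 DC-like cluster at E16.5, whereas at P0 clusters with little *Sox2* had high *Sox18*. At E16.5 a DC-like cluster of 203 cells led by *Bmp3*, *Hes5* and *Bmp4* had *Sox2* at 254 CPM (231 to 278) and *Sox18* at 332 CPM (306 to 359). A further DC-like cluster of 67 cells led by *Foxd1* had *Sox2* at 53.2 CPM (36.1 to 75.5) and *Sox18* at 46.3 CPM (30.5 to 67.4), so both were lower together. An unnamed cluster of 174 cells led by *Cdkn1a*, *Wisp1* and *Cpne5* had *Sox2* at 26.2 CPM, *Sox18* at 40.6 CPM and *Sox11* at 306 CPM. At P0 a DP-like cluster of 43 cells led by *Serpine2*, *Gdf10* and *Rspo1* had *Sox2* at 110 CPM (80.3 to 147) and *Sox18* at 482 CPM (417 to 554). In a cluster of 40 cells led by *Inhba* and *Bmp3*, *Sox2* had 1 UMI and *Sox18* was at 790 CPM (691 to 899). In the last, 31 cells led by *Plac8* and *Bmp4*, *Sox2* had 0 UMIs and *Sox18* was at 1085 CPM (930 to 1259). Thus 45 of the 46 *Sox2* UMIs of DP-like cells came from 1 of the 3 clusters, the one with the least *Sox18*.

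Among DC-like cells at E16.5, *Sox18* was found with *Sox2* more often than without it. Of 113 thinned cells with a *Sox2* UMI, 58.4% (48.8% to 67.6%) also had a *Sox18* UMI, against 34.4% (27.0% to 42.4%) of 157 cells without. These shares pool the 2 DC-like clusters, which differed in both genes together, and shares within a cluster were not computed. Among DP-like cells at P0 the shares were 58.3% (27.7% to 84.8%) of 12 cells and 82.4% (73.6% to 89.2%) of 102 cells, which overlapped.

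Since *Sox18* is also an endothelial gene, and since the DP-like clusters of 40 and 31 cells were first grouped with endothelial cells before they were clustered again, endothelial markers were read in them. The 10 endothelial markers summed to 238 CPM in the cluster of 40 cells, with *Cdh5* and *Tie1* at 0, and to 236 CPM in that of 31 cells, with *Tie1* at 0. The sum was 159 CPM in the third DP-like cluster, 58.2 CPM in dermal-like cells and 6985 CPM in endothelial-like cells. *Sox7* and *Sox17* had 0 UMIs in all 114 DP-like cells. Of the 10 genes listed for endothelial identity, 4 had enough UMIs in DP-like against dermal-like cells. Of these *Cldn5*, a tight junction gene, was called higher at 55.8 against 6.40 CPM, *Notch1* higher at 46.5 against 7.93 CPM and *Efnb2* lower at 10.5 against 48.0 CPM, while *Nr2f2* was not called. The part of endothelial RNA in these values was not tested. A further cluster of 57 cells at P0, unnamed because it had first been grouped with endothelial cells and held only 1 of its own markers among its 10 leading genes, where such clusters needed 3, had *Sox18* at 561 CPM (482 to 649), *Sox11* at 366 CPM and *Sox2* at 31.0 CPM, with *Sox7*, *Sox17* and *Cdh5* at 0. It scored highest for the DP list and was led by *Pdlim3*, *Galnt9*, *Stmn2* and *Heyl*.

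*Sox18* was also measured in cells named dermal-like at P0, with 346 UMIs, or 20.6% of the *Sox18* UMIs of that library. The 12 dermal-like clusters ranged from 1.90 to 180 CPM for *Sox18*. The highest was a small cluster of 19 cells led by *Mfap5*, *Igfbp4* and *Akap12*, with 27 UMIs (118 to 261 CPM), followed by 161 cells led by *Sost*, *Dkk1* and *Wisp1* at 56.6 CPM (43.0 to 73.2). The dermal-like class of the E13.5 library had 6 *Sox18* UMIs and 23 *Sox2* UMIs, at 0.307 and 1.18 CPM, and *Sox2* was then below its immune-like level of 4.16 CPM.

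Of the 10 genes listed for the condensate, 8 were markers that named the cells. The other 2 were called higher in DC-like and in DP-like cells: *Lef1*, a transcription factor of Wnt signalling, by 1.85 (1.73 to 1.98) and 2.86 (2.66 to 3.06), and *Cdkn1a*, a cell cycle inhibitor, by 3.73 (3.63 to 3.83) and 2.13 (1.95 to 2.32). Of the 3 listed SoxC targets with enough UMIs, *Stmn2*, a regulator of microtubules, was called higher in both, at 928 against 180 CPM in DC-like and 623 against 125 CPM in DP-like cells. *Tead2* was called lower in DP-like cells only, by -1.09 (-1.45 to -0.74), its difference in DC-like cells being 0.25 (0.12 to 0.37), and the difference between the stages was not tested. *Map2* was not called at either stage.

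The SoxF genes *Sox7* (chromosome 14, from 63943673 to 63950732), *Sox17* (chromosome 1, from 4490931 to 4497354) and *Sox18* were the endothelial members. Against all remaining cells of each library, endothelial-like and lymphatic-like cells together were called higher in these 3 genes at every stage. All 9 Sox genes had enough UMIs at each stage. At E13.5, 3 were called higher and 1 lower (*Sox9*), where 7.33% of 13665 genes were called. At E16.5, 3 were higher and 2 lower (*Sox2* and *Sox9*), where 10.4% of 13613 genes were called, and at P0, 3 were higher and 3 lower (*Sox4*, *Sox9* and *Sox10*), where 13.4% of 12934 genes were called. *Sox4* at P0 fell short of 2-fold when Sox genes were kept among the clustering features, at -0.99 (-1.12 to -0.87) in place of -1.19 (-1.31 to -1.07).

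*Sox17* was at 107 CPM (89.6 to 126) in endothelial-like cells at E13.5, 146 CPM (137 to 157) at E16.5 and 208 CPM (191 to 226) at P0. These intervals did not overlap between the libraries. The E13.5 class included a cluster of 29 cells with lymphatic leading genes and *Sox17* at 40.1 CPM, which lowered its level. The level without that cluster was not computed. The gap between the E13.5 and E16.5 intervals is therefore not shown for endothelial-like cells without it. *Sox7* was at 71.5 CPM (57.8 to 87.5), 67.5 CPM (60.9 to 74.6) and 81.7 CPM (71.4 to 93.2), which overlapped between neighbours in that order. *Sox18* was at 57.8 CPM (45.6 to 72.4), 73.4 CPM (66.6 to 80.8) and 102 CPM (89.9 to 114). The level of *Sox17* was thus above those of its relatives in endothelial-like cells of each library. In the pooled epithelial-like classes, which should lack these genes, the 3 were between 0 and 1.90 CPM at all stages. Some single classes were higher: at P0 *Sox7* was at 6.00 CPM (2.88 to 11.0) in suprabasal-like cells. It was at 4.82 CPM (2.64 to 8.09) in upper follicle-like cells. The endothelial-like share with a *Sox17* UMI was 23.6%, 37.3% and 46.9% when thinned and 42.7%, 78.9% and 72.4% unthinned, beside 0%, 0.342% and 0.355% of epithelial-like cells when thinned.

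Lymphatic-like cells had *Sox18* at levels whose difference from endothelial-like cells had intervals that include 0, and they had less *Sox17*. The endothelial-like class at E13.5 held a cluster of 29 cells, of 110, with the lymphatic genes *Ccl21a* and *Mmrn1* among its leading genes. In that cluster *Sox17* was at 40.1 CPM and *Sox7* at 30.0 CPM. *Sox18* was at 61.0 CPM (49.3 to 74.7) in lymphatic-like cells at E13.5, 89.8 CPM (71.7 to 111) at E16.5 and 129 CPM (87.1 to 184) at P0, and its log2 differences from endothelial-like cells were 0.07 (-0.32 to 0.45), 0.26 (-0.06 to 0.56) and 0.32 (-0.22 to 0.83). *Sox17* was at 20.1, 42.2 and 4.30 CPM, with differences of -1.95 (-2.36 to -1.53), -1.58 (-1.97 to -1.20) and -3.93 (-4.44 to -2.68), the last from 1 UMI in 12 lymphatic-like cells. *Sox7* was at 14.9, 30.6 and 30.1 CPM, with differences of -1.71 (-2.15 to -1.25), -0.93 (-1.36 to -0.50) and -1.19 (-2.07 to -0.33). *Sox17* was therefore called lower at each stage, *Sox7* at E13.5 and P0, and *Sox11* at P0 by -1.36 (-2.15 to -0.19).

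In that comparison 5 of the 9 Sox genes had enough UMIs at each stage, *Sox2*, *Sox5*, *Sox9* and *Sox10* being too low. The calls were 2 of 5 at E13.5, where 4.60% of 6428 genes were called, 1 of 5 at E16.5, where 7.86% of 8914 were called, and 3 of 5 at P0, where 15.0% of 5974 were called. The lymphatic-like cells numbered 143, 43 and 12. Without the cluster of 29 cells the calls at E13.5 were again *Sox7*, at -1.84 (-2.28 to -1.37), and *Sox17*, at -2.09 (-2.51 to -1.66). At E16.5 *Sox7* passed 2-fold with doublet calls left out, at -1.02 (-1.45 to -0.59), and *Sox11* passed when each cell was given equal weight, at -1.20 (-1.57 to -0.84) in place of -0.94 (-1.31 to -0.58).

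**Figure D3:**
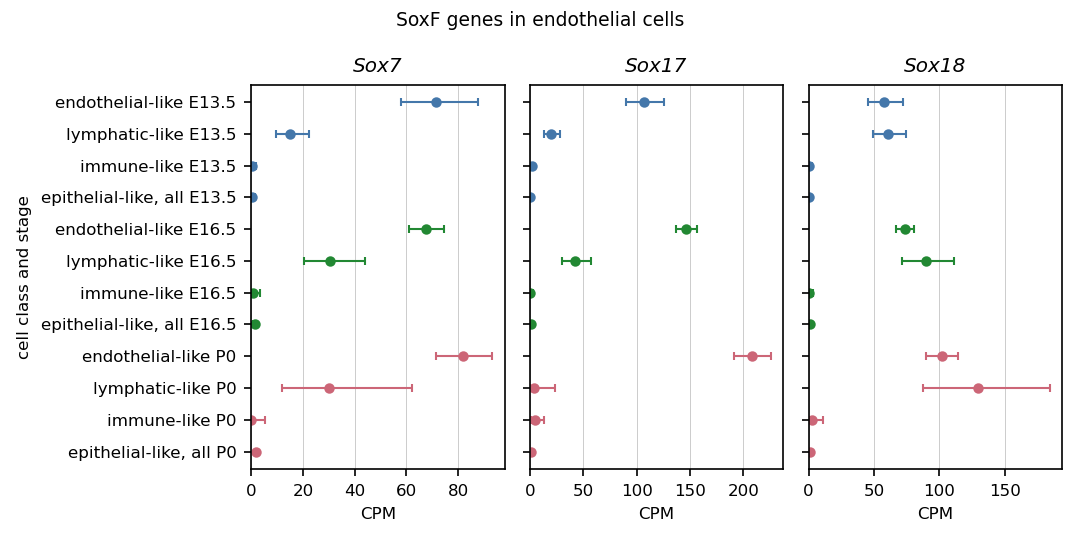
Level in CPM (horizontal axes) of *Sox7*, *Sox17* and *Sox18* in endothelial-like and lymphatic-like cells and in 2 reference classes by stage (vertical axis), with points for the level of summed UMIs and bars for 95% Poisson intervals. *Sox17* separates the 2 endothelial classes at each stage, *Sox18* does not, and the immune-like and epithelial-like cells lie near 0.

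The endothelial-like clusters of 1 library differed in all 3 genes. At E16.5 the 7 clusters ranged from 82.6 to 473 CPM for *Sox17*, from 37.2 to 162 CPM for *Sox7* and from 42.0 to 143 CPM for *Sox18*. All 3 maxima were in 1 cluster of 24 cells led by *Gja4*, a gap junction gene of arteries, and *Mecom*. At P0 the 5 clusters ranged from 102 to 352 CPM for *Sox17*, and the highest was a cluster of 90 cells led by *Lrat*, *Gpihbp1* and *Ly6c1*. In it *Sox18* was at 101 CPM (80.9 to 124), whereas the highest *Sox18* level of that library's clusters, 144 CPM, was in another. At E13.5 the 3 clusters ranged from 40.1 to 139 CPM for *Sox17*. These clusters were singled out after their values were seen.

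Cells with a *Sox7* UMI had a *Sox17* UMI in 26.1%, 39.1% and 54.8% of thinned cells at the 3 stages, and cells without it in 12.6%, 32.6% and 41.3%, with intervals that overlapped at each stage. The pairs of *Sox18* with *Sox7* and with *Sox17* overlapped too.

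Among 10 genes listed for endothelial identity, 4 had named the cells (*Prox1*, *Flt4*, *Cldn5* and *Cdh5*), and the other 6 all had enough UMIs against the remaining cells. At E13.5 and E16.5, 4 of the 6 were called higher and at P0, 5 of the 6. *Nr2f2*, a transcription factor of venous and lymphatic identity, was higher by 2.19, 2.16 and 2.02, and *Dll4*, an arterial Notch ligand, by 1.93, 2.04 and 2.41. *Tek*, the angiopoietin receptor, was higher by 1.82, 2.66 and 2.78. *Efnb2* was not called at any stage. In lymphatic-like against endothelial-like cells, 3 of these genes were called among the 5 with enough UMIs at E13.5 (*Nr2f2* higher, *Efnb2* and *Tek* lower), 3 of 6 at E16.5 (*Nr2f2* higher, *Tek* and *Vwf* lower) and 3 of 6 at P0 (*Nr2f2* and *Notch1* higher, *Vwf* lower). *Nr2f2* differed by 1.17 (0.92 to 1.42), 1.12 (0.92 to 1.32) and 1.81 (1.44 to 2.17), and *Vwf*, a clotting factor of blood vessels, had 0 UMIs in lymphatic-like cells at E16.5 and P0, beside 35.8 and 71.5 CPM in endothelial-like cells.

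*Sox10* (chromosome 15, from 79154908 to 79165240, minus strand) marked both neural crest derivatives at close levels. It was at 264 CPM (239 to 292) in Schwann-like cells at E13.5, 287 CPM (257 to 320) at E16.5 and 422 CPM (367 to 483) at P0. In melanocyte-like cells, the pigment cells, *Sox10* was at 193 CPM (147 to 248), 329 CPM (280 to 385) and 332 CPM (291 to 377). No other group of the 45 was above 8.96 CPM, which was the immune-like level at P0. The *Sox10* UMI was found in 82.1% to 95.9% of Schwann-like cells and 51.3% to 100% of melanocyte-like cells over the stages, or 59.3% to 72.7% and 30.8% to 68.9% when thinned.

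*Sox5* (chromosome 6, from 143828425 to 144781977, with 14 annotated transcripts) and *Sox2* were called between these lineages at E13.5 and E16.5, where *Sox10* was not. At E13.5 6 of the 9 Sox genes had enough UMIs (all but *Sox7*, *Sox17* and *Sox18*), and *Sox2*, *Sox5* and *Sox9* were called higher in Schwann-like than in melanocyte-like cells, where 6.78% of 5191 genes were called. At E16.5, with *Sox9* also too low, 2 of 5 were called higher, *Sox2* and *Sox5*, where 15.9% of 4824 genes were called. At P0 only *Sox4* and *Sox10* had enough UMIs, and 0 of 2 were called, where 17.8% of 3541 genes were called. *Sox10* differed by 0.44 (0.06 to 0.83), -0.19 (-0.46 to 0.08) and 0.34 (0.07 to 0.60) on the log2 scale.

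*Sox5* was at 142 CPM (123 to 162) in Schwann-like and 32.1 CPM (15.4 to 59.0) in melanocyte-like cells at E13.5, a log2 difference of 1.85 (1.11 to 2.60), and at 160 CPM (137 to 185) and 46.5 CPM (29.1 to 70.3) at E16.5, a difference of 1.59 (1.04 to 2.15). *Sox5* at P0 was at 55.5 CPM (36.9 to 80.2) and 15.5 CPM (7.76 to 27.8). *Sox2* had 84 against 2 UMIs at E13.5, a difference of 2.01 (0.96 to 2.67), and 69 against 1 UMI at E16.5, a difference of 2.54 (1.64 to 2.94). *Sox2* at P0 had 19 UMIs in Schwann-like and 1 UMI in melanocyte-like cells, under the minimum. With the minimum lowered to 10 UMIs, 2 Sox genes were called at P0. *Sox9* at E13.5 rested on 63 against 3 UMIs, with a difference of 1.40 (0.40 to 2.17), and gave 0.99 (-0.02 to 1.76), no longer a call, when each cell had equal weight.

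The 4 Schwann-like clusters at E16.5 differed in *Sox5*. It was at 264 and 252 CPM in clusters of 40 and 20 cells led by *Fabp7* and *Gfra3*, and at 41.7 and 119 CPM in clusters of 22 and 15 cells. *Sox10* was at 380, 367, 133 and 341 CPM in the same order. The cluster with the least of both, of 22 cells, also had the pigment gene *Dct* among its leading genes. At P0 *Sox5* was at 84.6 CPM (49.3 to 135) in 38 cells led by *Gfra3* and at 36.3 CPM (18.1 to 64.9) in 50 cells with *Mbp* among their leading genes, which overlapped.

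**Figure D4:**
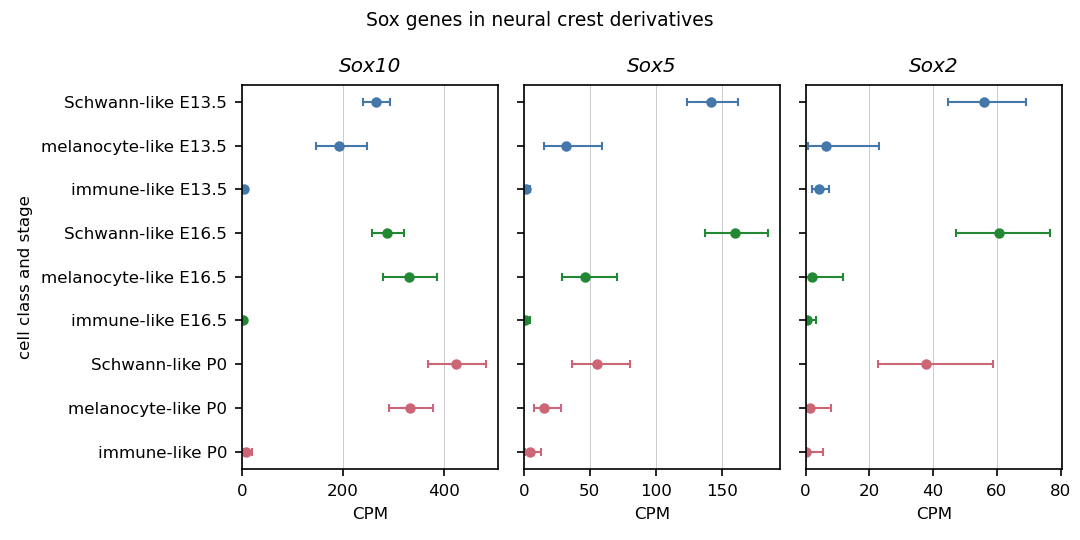
Level in CPM (horizontal axes) of *Sox10*, *Sox5* and *Sox2* in Schwann-like, melanocyte-like and immune-like cells by stage (vertical axis), with points for the level of summed UMIs and bars for 95% Poisson intervals. *Sox10* is high in both crest classes, while *Sox5* and *Sox2* are higher in Schwann-like cells, with intervals apart from melanocyte-like cells for *Sox5* at every stage.

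Of 10 genes listed beside Sox10, 6 had named these cells. *Pou3f1*, a transcription factor of promyelinating Schwann cells, was called higher in Schwann-like cells at each stage, by 1.42 (0.59 to 2.22), 3.76 (2.90 to 3.98) and 3.82 (3.26 to 4.36). *Pax3*, a transcription factor of the early crest, was lower in Schwann-like cells by -1.67 (-1.94 to -1.39) at E16.5 and -1.05 (-1.45 to -0.67) at P0, and was at 133 against 209 CPM at E13.5, a difference of -0.62 that was not called. *Ednrb* was not called at any stage, and *Egr2* had too few UMIs.

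*Sox9* (chromosome 11, from 112782224 to 112787760, plus strand, 3 exons) was high in the hair follicle, in neural progenitor-like cells and in cartilage-like cells. Its highest level was 384 CPM (361 to 407) in upper follicle-like cells at P0, followed by 328 CPM (314 to 342) in outer root sheath or follicle stem-like cells of that library, with no overlap. These classes held 22.9% and 43.6% of the library's *Sox9* UMIs. Neural progenitor-like cells at E13.5 came next, at 264 CPM (218 to 316). At E16.5 *Sox9* was at 223 CPM (202 to 245) in outer root sheath or follicle stem-like cells and at 7.26 CPM (3.75 to 12.7) in placode-like cells, the reverse of *Sox4*, which was at 654 and 1202 CPM. Matrix-like cells at P0 had *Sox9* at 92.8 CPM (81.5 to 105), near the 89.3 CPM (79.9 to 99.5) of interfollicular basal-like cells, and inner root sheath (IRS)-like cells at 10.4 CPM (5.35 to 18.1).

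The share of cells with a *Sox9* UMI at P0 was 65.2% (56.5% to 73.2%) in upper follicle-like cells and 64.1% (59.8% to 68.3%) in outer root sheath or follicle stem-like cells when thinned, and 85.9% and 81.2% unthinned. Immune-like cells of that library had *Sox9* at 98.6 CPM (76.3 to 125), which is above the matrix-like level, but in 7.58% of thinned cells and 10.6% unthinned. Of the 66 *Sox9* UMIs in 66 immune-like cells, 56 came from 3 cells, and *Krt14* was at 657 CPM in the class beside 156 CPM in dermal-like cells. The share in matrix-like cells, 14.5% (10.2% to 19.8%) thinned, had an interval overlapping that of the immune-like cells (2.51% to 16.8%), while that in interfollicular basal-like cells, 26.2% (21.3% to 31.5%) thinned and 45.6% unthinned, did not overlap it. As those 3 cells carry the immune-like level, other classes were read beside it. *Sox9* was at 5.56 CPM (4.46 to 6.86) in dermal-like cells and 5.50 CPM (3.08 to 9.07) in endothelial-like cells of the same library, with a UMI in 1.75% and 0.837% of thinned cells, and both matrix-like clusters, at 65.8 and 107 CPM, were above these.

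**Figure D5:**
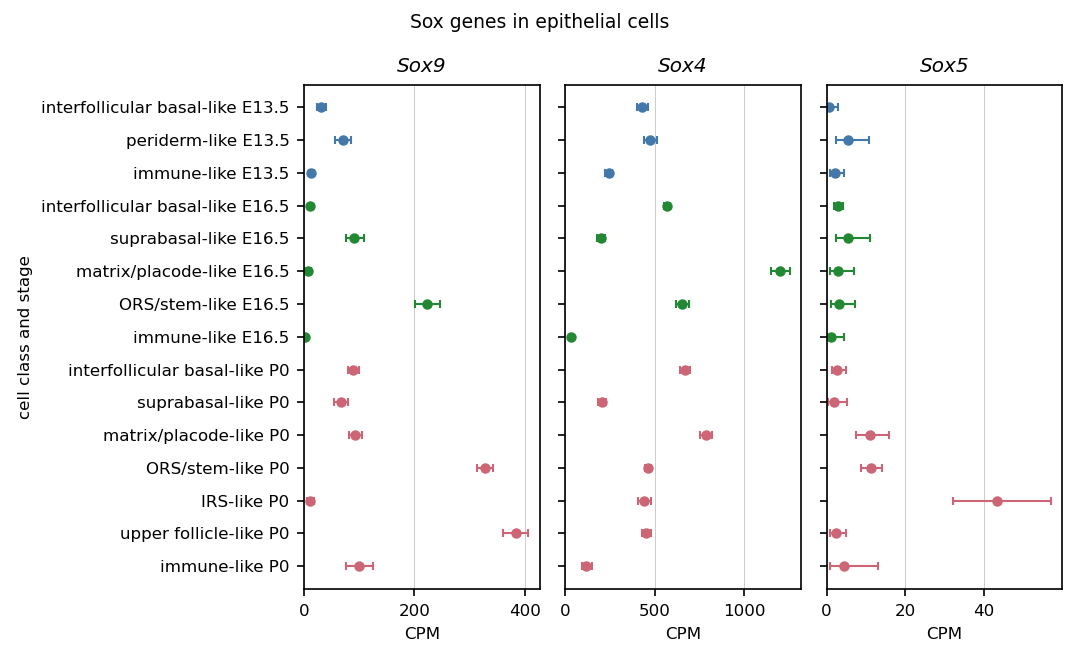
Level in CPM (horizontal axes) of *Sox9*, *Sox4* and *Sox5* in epithelial-like classes and immune-like cells by stage (vertical axis), with points for the level of summed UMIs and bars for 95% Poisson intervals. *Sox9* is highest in upper follicle-like and outer root sheath or follicle stem-like cells, at 384 and 328 CPM at P0, and *Sox4* in placode-like cells, at 1202 CPM.

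Follicle keratinocytes (matrix or placode-like, outer root sheath or follicle stem-like and IRS-like) were set against interfollicular keratinocytes (basal-like and suprabasal-like). At E16.5, 4 of the 9 Sox genes had enough UMIs (not *Sox5*, *Sox7*, *Sox10*, *Sox17* and *Sox18*) and 3 were called higher in the follicle, *Sox2*, *Sox9* and *Sox11*, where 2.22% of 10246 genes were called. *Sox9* was at 121 against 22.7 CPM, a log2 difference of 2.00 (1.81 to 2.18), *Sox11* at 31.3 against 3.76 CPM, a difference of 1.58 (1.33 to 1.83), and *Sox2* at 17.5 against 0.692 CPM, a difference of 1.36 (1.11 to 1.61). *Sox4* was at 914 against 516 CPM, and its difference of 0.81 (0.75 to 0.87) was below 2-fold. *Sox11* fell short at resolution 2, with 0.84 (0.58 to 1.09), and *Sox4* passed there, with 1.04 (0.98 to 1.10).

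At P0, 3 Sox genes had enough UMIs (*Sox4*, *Sox5* and *Sox9*) and 1 was called, *Sox9*, at 232 against 82.2 CPM, a log2 difference of 1.39 (1.26 to 1.53), where 7.10% of 10226 genes were called. That call was lost at resolution 0.5, with 0.58 (0.47 to 0.68), and in cells with at least 2500 genes, with 0.77 (0.64 to 0.91). *Sox5* was at 14.9 against 2.44 CPM, and its difference of 0.999 (0.77 to 1.20) lay just under 2-fold. *Sox5* was highest among keratinocytes in IRS-like cells, with 50 UMIs at 43.2 CPM (32.0 to 56.9), where 14.4% (8.47% to 22.4%) of thinned cells had a UMI (30.6% unthinned), against 3.03% (3.03% unthinned) of immune-like cells. *Sox4* differed by 0.05 (-0.02 to 0.11), which was not detectable as a difference.

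Among the 4 outer root sheath or follicle stem-like clusters at P0, *Sox9* was at 755 CPM (694 to 819) in 72 cells led by *Tbx1*, *Shisa2*, *Barx2* and *Sfrp1*, and between 234 and 314 CPM in the other 3. This was the highest *Sox9* level of any cluster. An unnamed epithelial cluster of 65 cells led by *Klk10*, *Pthlh* and *Krt17* was at 312 CPM, and another of 115 cells led by *Has3* and *Lhx2* at 164 CPM. The 86 suprabasal-like cells at E16.5, whose leading genes also held the periderm markers *Krt6a* and *Krt4*, had *Sox9* at 91.1 CPM (76.2 to 108) in 10.5% of thinned cells (25.6% unthinned).

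The *Sox2* UMIs of the follicle at E16.5 came from few cells. In outer root sheath or follicle stem-like cells 60 UMIs were found in 13 of 105 cells, 29 of them in the 3 highest cells. Merkel cells, touch receptors of the epidermis, are known to express *Sox2*, and their fixed markers were read in these cells after the values had been seen. *Atoh1*, the transcription factor that specifies Merkel cells, had a UMI in 8 of the 13 cells with *Sox2* and in 0 of the 92 cells without. *Isl1* had a UMI in 3 of the 13 cells, *Insm1* in 6, *Krt18* in 6 and *Krt8* in 8, against 0, 0, 5 and 3 of the 92. *Piezo2* had a UMI in 4 of the 13 and 6 of the 92, and *Krt20* in none. Of the 12 condensate markers, 7 were at 0 in the 13 cells, among them *Foxd1*, *Bmp3*, *Bmp4* and *Cpne5*. The other 5 were *Trps1* with 30 UMIs in 8 of the 13 cells, *Prdm1* with 4 UMIs, *Rspo3* and *Hhip* with 2 UMIs each and *Heyl* with 1 UMI. *Trps1* also had a UMI in 56 of the 92 cells without *Sox2*.

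The 10 genes listed beside Sox9 in the follicle held 3 markers of these cells (*Lhx2*, *Nfatc1* and *Shh*). Of the other 7, 6 had enough UMIs at E16.5 and 1 was called higher, *Lgr6*, a receptor of follicle stem cells, by 1.52 (1.30 to 1.73). At P0 all 7 had enough UMIs and 4 were called higher: *Lgr5* by 2.12 (1.93 to 2.27), *Lgr6* by 1.62 (1.40 to 1.84), *Gli1*, a target of hedgehog signalling, by 1.12 (0.92 to 1.32), and *Tcf7l2* by 1.06 (0.88 to 1.24). *Tcf7l1*, *Gli2* and *Ptch1* were not called at either stage.

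In the E13.5 mesenchyme *Sox9* and *Sox5* were highest in cartilage-like cells, which also carried the third gene of the cartilage trio, *Sox6*. Of the 9 Sox genes 4 had enough UMIs in cartilage-like against dermal-like cells (not *Sox2*, *Sox7*, *Sox10*, *Sox17* and *Sox18*) and 2 were called higher, where 4.72% of 11472 genes were called. *Sox9* was at 201 CPM (177 to 227) against 14.9 CPM, a log2 difference of 3.08 (2.88 to 3.28), and *Sox5* at 49.7 CPM (38.2 to 63.4) against 1.84 CPM, a difference of 2.33 (2.01 to 2.64). *Sox4*, at 687 against 374 CPM, gave 0.86 (0.76 to 0.96), and *Sox11* gave -0.33 (-0.54 to -0.12). *Sox6*, a SoxD relative of *Sox5* listed beside them, was at 23.3 against 2.36 CPM, a difference of 1.43 (1.05 to 1.81). The other listed cartilage genes with enough UMIs, among them *Col2a1* and *Col9a1*, had named the cells. Among cartilage-like cells with a *Sox9* UMI 22.4% (13.1% to 34.2%) had a *Sox5* UMI when thinned, and among those without 10.5% (4.66% to 19.7%), which overlapped.

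In tendon-like cells 4 of the 9 (*Sox4*, *Sox5*, *Sox9* and *Sox11*) had enough UMIs and 1 was called higher than in dermal-like cells, *Sox9*, where 4.02% of 11595 genes were called. It was at 60.9 CPM (51.4 to 71.5), a log2 difference of 1.51 (1.28 to 1.74), and the 2 tendon-like clusters were at 37.0 and 103 CPM. The lower of them, 186 of the 296 cells, had no tendon marker among its 10 leading genes, whereas 3 dermal-like clusters with 435 cells had one. Without the former *Sox9* differed by 2.18 (1.88 to 2.47) and *Sox5* was called too, at 1.20 (0.72 to 1.70). Without the latter *Sox9* differed by 1.86 (1.62 to 2.10). The call was lost at resolution 0.5, with 0.80 (0.49 to 1.12). Among the 10 dermal-like clusters *Sox9* ranged from 1.14 to 55.9 CPM, the highest in 109 cells led by *Scx*, a transcription factor of tendon progenitors, and the lowest in 285 cells led by *Nrgn*, *Calb1* and *Crabp1*.

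Patterns over the 45 groups were compared by Pearson's r of log2 CPM plus 10, as a description of groups that share 3 libraries with their depth and free RNA. Of the Sox genes, *Sox7* and *Sox17* ran most alike (r = 0.97), then *Sox5* and *Sox10* (0.74), *Sox17* and *Sox18* (0.55) and *Sox7* and *Sox18* (0.53). *Sox2* and *Sox11* were at 0.49, *Sox4* and *Sox11* at 0.46, *Sox2* and *Sox4* at 0.45 and *Sox5* and *Sox9* at 0.13. Among 13324 other genes, the nearest to *Sox17* were *Ptprb*, *Ushbp1* and *Emcn* (0.98 each) and to *Sox7* *Ushbp1*, *Ptprb* and *Robo4* (0.97, 0.97 and 0.96). Near to *Sox10* were *Gjc3* and *Cdh19* (0.98 and 0.96) and to *Sox5* *Foxd3* and *Afap1l2* (0.79 each). *Emcn*, *Cdh19* and *Foxd3* were among the markers. So was *Hes5*, given below for *Sox2*, which is a marker of neural progenitor-like cells. For *Sox11* the nearest were *Tubb2b*, *Dbn1* and *Tmeff1* (0.93, 0.89 and 0.88) and for *Sox4* *Prdx2*, *Ip6k2* and *Sbk1* (0.87, 0.83 and 0.83). *Sox18* was nearest to *Tmem204*, *2700046A07Rik* and *Arhgef28* (0.85, 0.82 and 0.82), *Sox2* to *Hes5*, *Ttyh1* and *Shroom3* (0.82, 0.79 and 0.78), and *Sox9* to *Prss22*, *Halr1* and *Ddr1* (0.68, 0.67 and 0.67), the weakest of the 9.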

How the data were processed

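Per the labels and methods, the authors aligned reads to mm10 and counted UMIs with Cell Ranger 2.2.0, and left out cells under 1750 genes in Seurat. The deposited table held more cells at each stage than the paper reports after filtering, and all of them were used. The deposited values are on a natural log scale: UMIs scaled to 10000 in each cell, plus 1. The formula was found from the values: all 48197283 values above 0 came back as whole UMIs within a tolerance of 0.001. The libraries held 53334740, 66239195 and 46599806 UMIs.

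The 3 libraries were clustered separately with scanpy 1.11.5 (Python 3.11.15, leidenalg 0.10.2) with 2000 variable genes, no Sox gene, 30 components, 15 neighbours and Leiden resolution 1, and each compartment was clustered again. A cluster was named for the class whose markers lay highest over the 25th percentile of clusters, with at least 3 markers at a log2 difference of 1 or more, and stayed unnamed where its 10 leading genes or another compartment's score went against the name. Epithelial subclasses needed a mean of 2. These thresholds were set after the clusters had been seen, and 1 periderm-marked cluster is counted as suprabasal-like. Doublets (Scrublet) were kept.

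Intervals are exact Poisson or binomial at 95% and cover counting error only. Shares were thinned to 3500 UMIs, which left out 1 cell at E16.5. No test was run. Genes named were the 9 members, other Sox genes, listed partners and the 3 genes most alike over groups of at least 20 cells among genes with at least 200 UMIs. A few genes that these rules name are not reported here. Members and lists were chosen with earlier results of these data known. The intervals and calls were tested on counts simulated with counting error only. That run did not include UMIs clumped in few cells, the clustering or the naming. Positions are from GENCODE vM21 and promoters from RefSeq (GRCm38.p6).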

Additional observations from a re-analysis of the deposited data

How the results depend on the processing

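No paired analysis was possible because each stage had 1 library and no test was run. Of 137 counts of Sox genes called under the alternatives, 125 stayed within 1.5 times the value reported and 12 did not, and of 746 log2 differences none changed sign past the call, 6 lost the call and 26 gained it. With 1 in place of 10 added to each CPM, the calls went from 4 to 7 in endothelial-like and lymphatic-like cells at E13.5, from 1 to 3 in lymphatic-like cells at E16.5, from 1 to 2 in follicle keratinocytes at P0, from 1 to 2 in tendon-like cells and from 2 to 8 in neural-like cells, the smaller constant shrinking low levels less. Lymphatic-like cells at E16.5 gave 2 calls without doublet calls and 2 with equal weight for each cell. Schwann-like against melanocyte-like cells at P0 went from 0 to 1 at resolution 2, to 2 in cells with at least 2500 genes and to 2 with a minimum of 10 UMIs. At resolution 0.5 the calls in follicle keratinocytes at P0 and in tendon-like cells were 0. Apart from the constant and the minimum, the cause was not tested. Of 180 levels, 53 moved past their interval, and 24 of 27 thinned shares did when unthinned. Of further alternatives, chosen after seeing the data and not in these counts, leaving out the tendon-like cluster with no tendon marker among its leading genes gave 2 calls in place of 1 in tendon-like cells, and leaving unnamed cells out of the remaining cells gave 6 in place of 5 in endothelial-like and lymphatic-like cells at E16.5, *Sox10* being added. Leaving out doublet calls (84 cells at E16.5 and 106 at P0) was not run at E13.5, where the caller found 0. That count does not show that the E13.5 library was free of doublets, and their part in its results was not tested. The lymphatic-like class at P0 was not found at resolution 0.5. Replicate error could not be measured with 1 library per stage.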

Other observations

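Of the 11 other Sox genes looked up, 10 were in the table and *Sry* was not. *Sox21*, a SoxB2 gene, was highest in matrix-like cells at P0, at 177 CPM, and was at 93.3 CPM in IRS-like cells of that library. Follicle keratinocytes at E16.5 had *Sox21* at 41.0 CPM against 12.2 CPM in interfollicular keratinocytes, a log2 difference of 1.20 (0.96 to 1.44). *Sox15*, a SoxG gene, ran the other way at P0, at 3.03 CPM in the follicle and 24.2 CPM in interfollicular keratinocytes, a difference of -1.39 (-1.60 to -1.17). *Sox13*, a SoxD gene, was at 20.04 against 1.13 CPM in the same cells, a difference of 1.43 (1.22 to 1.60), and at 30.1 against 7.65 CPM in endothelial-like and lymphatic-like against the remaining cells at P0, a difference of 1.18 (0.94 to 1.42).

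*Sox6*, the SoxD relative of *Sox5*, showed the opposite order to *Sox5* in the neural crest at E16.5: it was at 92.9 CPM in melanocyte-like and 9.65 CPM in Schwann-like cells, a log2 difference of -2.39 (-2.95 to -1.76). *Sox8*, a SoxE gene, was highest in myocyte-like cells, at 54.8 CPM at E16.5 and 42.1 CPM at E13.5. *Sox1*, *Sox3* and *Sox14* had 0 UMIs at P0, and at E13.5 they were highest in neural progenitor-like cells (33.8 and 11.3 CPM) and in periderm-like cells (14.5 CPM). *Sox12*, the third SoxC gene, was highest in Schwann-like cells at E16.5, at 58.8 CPM, far below its relatives *Sox4* and *Sox11* in neural-like cells. *Sox30* did not exceed 2.90 CPM in any group.

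An unnamed cluster of 33 cells at P0 led by the pigment genes *Ptgds*, *Mlana*, *Pmel* and *Dct* had *Sox10* at 75.5 CPM (59.0 to 95.3) and *Sox9* at 224 CPM (195 to 257). Another class scored nearly as high as melanocytes in it.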
